A study of Mus musculus with 4 samples.

Results

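The genes described here build, load and degrade major histocompatibility complex (MHC) class II molecules, and they were followed in mouse haematopoietic stem cells (HSCs) sorted for a high or a low level of N-myc, a transcription factor of the MYC family. The 10 genes were the class II chains H2-Aa, H2-Ab1 and H2-Eb1, the invariant chain Cd74, the peptide editors H2-DMa, H2-Oa and H2-Ob, the protease Ctss, the transactivator Ciita and the ubiquitin ligase Marchf1, out of 18193 genes measured. They were chosen by function with the N-myc high against N-myc low differences of these same arrays in view, so those differences are given as a description and carry no test. All probe sets that the platform annotation assigns to 1 of these genes alone were taken, 20 of 34945 with a single gene name, and each gene was represented by its brightest probe set, judged by the mean of all 4 arrays.

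All mice carried a fusion of N-myc and the red fluorescent protein mCherry, and the labels give neither strain nor age. Lineage-negative bone marrow cells with Sca-1, Kit and CD150 on their surface and without CD48 were divided by mCherry into fractions called N-myc high and N-myc low, without culture or treatment. Each fraction was measured once from mouse 1 and once from mouse 2, from 5 ng of amplified total RNA per array. mCherry reports the fusion protein, and a sorted fraction can hold fewer cells with a transcript or less transcript per cell, which cannot be told apart here.

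MHC class II molecules show peptides from ingested or endosomal proteins to CD4+ T cells. An alpha and a beta chain pair in the endoplasmic reticulum around the invariant chain Cd74, which blocks the groove and steers the complex to endosomes. There cathepsins, Ctss among them, trim Cd74, and H2-DM swaps the remaining fragment for other peptides under the restraint of H2-DO. Transcription of the class II chain genes and of Cd74 is governed by the coactivator Ciita. It is recruited by RFX and NF-Y proteins on a conserved pair of promoter elements, the X and Y boxes. Marchf1 ubiquitinates surface class II and sends it to degradation. Class II is best known on dendritic cells, macrophages and B cells, and HSCs have also been reported to carry it.

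The X and Y box arrangement was looked up in RefSeq promoter windows of 250 bases before each gene start (mouse build GRCm38.p6), which covered 7 of the 10 genes with 10 windows. The search asked for GCAAC, a core of the X box, followed 20 to 30 bases on by ATTGG, the NF-Y core of the Y box read as the reverse of CCAAT, on either strand and without overlap. This pair stood in 4 of the 10 windows, those of H2-Aa, H2-Eb1, H2-Oa and H2-Ob, and in 0.49% of 32851 windows of all genes. The spacing was 28 bases in H2-Aa and H2-Oa, 27 in H2-Eb1 and 25 in H2-Ob. The stretches are printed 5′ to 3′ on the gene's strand with both cores in capitals, because they show class II genes that share this arrangement while their N-myc high and low values, given further on, differ.
H2-Aa (minus strand, chr17:34287855-34287916): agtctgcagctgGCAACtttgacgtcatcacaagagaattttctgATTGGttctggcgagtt
H2-Eb1 (plus strand, chr17:34305764-34305824): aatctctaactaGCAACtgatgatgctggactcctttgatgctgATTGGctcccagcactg
H2-Oa (plus strand, chr17:34092291-34092352): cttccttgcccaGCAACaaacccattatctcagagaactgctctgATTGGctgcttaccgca
H2-Ob (plus strand, chr17:34238806-34238864): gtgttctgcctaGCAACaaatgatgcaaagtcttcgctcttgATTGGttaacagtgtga
In H2-Aa the palindrome TGACGTCA, the binding core of CREB proteins, begins 74 bases before the start and lies between the cores, and 1.55% of all windows hold it. The windows of H2-DMa, Ctss and Marchf1 did not hold the cores in this order and spacing, which says only that, since single cores do stand in those of H2-DMa and Marchf1. The Ctss window held GAAA, any 2 bases and GAAA again, the spacing of repeats that interferon regulatory factors bind. Of all windows, 2.98% hold this. It was picked after values or sequences were seen, and whether it bears on the Ctss values was not tested.
Ctss (plus strand, chr3:95526745-95526785): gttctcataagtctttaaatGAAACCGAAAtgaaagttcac
A match is a stretch of letters in a window and was not measured as bound.

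The arrays were alike in most respects. Correlations of gene levels between arrays of a fraction or of a mouse ran from 0.972 to 0.980, and Mycn, which encodes N-myc, was at 10.43 ± 0.069 (SD, n = 2) on the log2 scale on the N-myc high arrays, against 9.54 ± 0.15 (SD, n = 2) on the N-myc low ones. Of 10 measured HSC markers, 0 lay in the dimmer 50% of genes. Both arrays of mouse 1 carried Xist (11.4 and 11.1, against 3.84 and 3.70 in mouse 2) together with the Y-linked Eif2s3y (8.53 and 8.43), so whether they hold RNA of 1 animal was not tested. The added bioB and bioC controls were at 10.81 to 11.05 on 3 arrays and at 11.67 on N-myc low mouse 2. Below, values are RMA log2 intensities, an N-myc high minus N-myc low difference of 1 is a factor of 2 in intensity, and the SE is that of the moderated limma fit over all genes.

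Of the 10 genes, 5 had both N-myc high arrays above both N-myc low arrays (Cd74, H2-Aa, H2-Eb1, H2-Ab1 and Ctss), 2 had them below (H2-Ob and Marchf1), and 3 overlapped (H2-DMa, H2-Oa and Ciita). Over all 18193 genes, 15.6% were separated upward in this way and 20.8% downward, and since the genes were chosen on this contrast nothing is read from their count. A separation with a difference of at least 1 was seen upward for 4 of the 10 genes and downward for 2, against 1.78% and 0.962% of all genes. The median difference of the 10 genes was 0.43, against -0.03 for all genes, with 0.60 in mouse 1 and 0.12 in mouse 2. Leaving out 1 array gave 0.11 (N-myc high mouse 1), 0.67 (N-myc high mouse 2) and 0.20 (N-myc low mouse 1). In limma, 0 of the 18193 genes passed a Benjamini-Hochberg adjusted p under 0.05, so no single gene named here was called, and 1148 genes (6.31%) had an unadjusted p under 0.05.

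**Figure D1:**
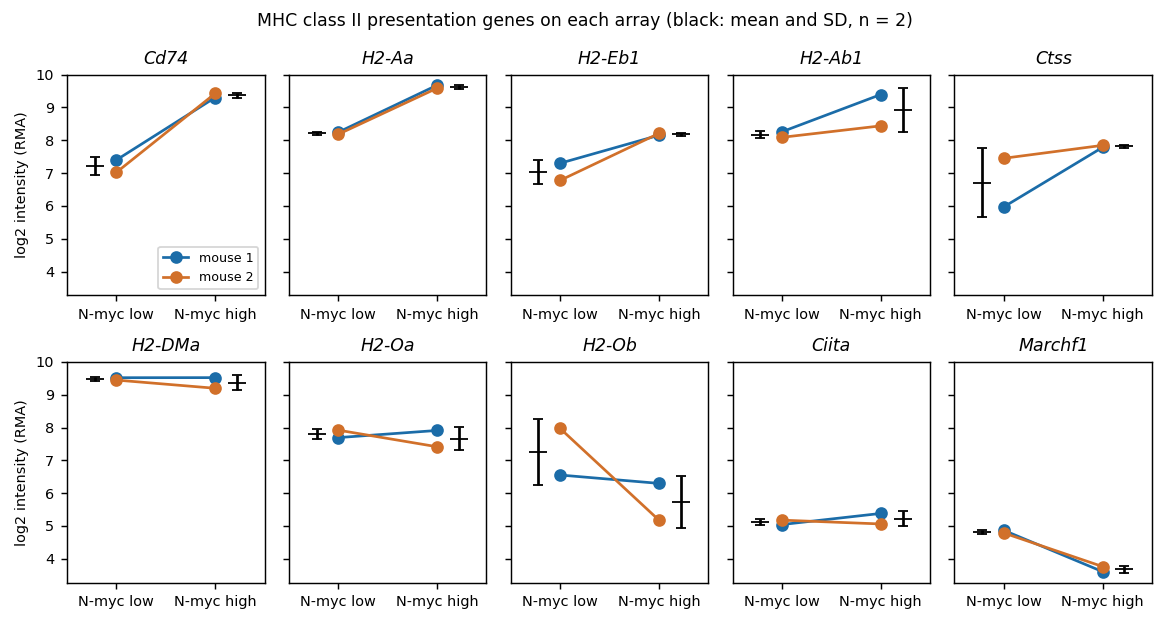
Log2 RMA intensity (vertical axis) of the 10 class II presentation genes in N-myc low and N-myc high HSCs, with a line for each mouse and the mean and SD of the 2 arrays of a group in black. Cd74 and H2-Aa lie higher in the N-myc high fraction in both mice, Marchf1 lies lower in both, and H2-Ob differs by -2.79 in mouse 2 and by -0.25 in mouse 1.

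The invariant chain gene Cd74 had the largest difference of the 10. It was at 9.30 in mouse 1 and 9.43 in mouse 2 in N-myc high HSCs, and at 7.40 and 7.02 in N-myc low HSCs. The fractions were far apart in both mice, by 1.90 and 2.41. The mean difference was 2.15 (SE 0.217), or 4.45-fold in intensity. Cd74 has a single probe set with its name alone on this array, so no other probe set stood beside it.

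The alpha chain gene H2-Aa was at 9.68 and 9.59 in N-myc high (mouse 1 and 2) and at 8.24 and 8.18 in N-myc low. The mice gave nearly the same difference, 1.43 and 1.40, and the mean was 1.42 (SE 0.176), or 2.67-fold. The H2-Aa probe set 1452431_s_at was at 8.89 and 8.06 in N-myc high and at 7.42 and 6.37 in N-myc low, a difference of 1.58. The probe set 1438858_x_at of H2-Aa gave 0.81, with 8.72 and 8.94 against 7.80 and 8.25. The fourth, 1443783_x_at, lay between 2.12 and 2.42 on all arrays and differed by 0.06, so 3 of 4 probe sets of H2-Aa separated the fractions and the dimmest did not. Probe sets whose name ends in _x_at or _s_at hold probes that also match other transcripts, so they need not read H2-Aa alone.

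H2-Eb1, a beta chain gene, was at 8.15 and 8.21 in N-myc high and at 7.30 and 6.78 in N-myc low. The 2 N-myc high arrays were close to each other, the N-myc low arrays were farther apart, and the fractions did not overlap. The mean difference of 1.14 (SE 0.245) was made up of 0.85 (mouse 1) and 1.43 (mouse 2). H2-Eb1 has 1 probe set.

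The other beta chain gene, H2-Ab1, was at 9.39 and 8.44 in N-myc high and at 8.26 and 8.09 in N-myc low. Here mouse 1 stood out with 1.13 against 0.35 in mouse 2, and the mean difference was 0.74 (SE 0.366). Leaving out N-myc high mouse 1 gave 0.26, and leaving out N-myc high mouse 2 gave 1.22. The other H2-Ab1 probe sets gave 0.75 (1451721_a_at) and 0.64 (1425477_x_at), and all 3 separated the fractions. The latter had 6.88 and 6.12 in N-myc high against 5.69 and 6.03 in N-myc low, so mouse 2 of the high fraction lay barely above mouse 2 of the low one. Across H2-Aa, H2-Ab1 and H2-Eb1, all 8 probe sets had a positive difference and 7 separated the fractions upward. Of all probe sets with 1 gene name, 15.4% did so. The 3 genes were chosen on this contrast, and probe sets of 1 gene are repeated readings of it, so nothing is read from these counts.

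The values of the peptide editors among the 10 genes overlapped between the fractions or lay the other way. H2-DMa, the alpha chain of H2-DM, was at 9.52 and 9.20 in N-myc high and at 9.52 and 9.45 in N-myc low, a difference of -0.12 (SE 0.204), and its other probe set gave -0.05. H2-Oa, the alpha chain of H2-DO, was at 7.91 and 7.42 in N-myc high and at 7.69 and 7.92 in N-myc low, a difference of -0.14 (SE 0.250) with opposite signs in the mice. The fractions overlapped for both genes, although neither was dim: they lay above 90.1% and 69.2% of genes. H2-DMa gave 0.04 and H2-Oa 0.10 without N-myc high mouse 2, so the sign of neither was settled.

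H2-Ob, the beta chain of H2-DO, was at 6.30 and 5.18 in N-myc high and at 6.55 and 7.97 in N-myc low. Both N-myc high arrays were lower, but almost all of the distance came from mouse 2, with -2.79 against -0.25 in mouse 1. The mean was -1.52 (SE 0.626), and leaving out 1 array moved it to between -2.23 (N-myc low mouse 1) and -0.81 (N-myc low mouse 2). The highest of the arrays for H2-Ob, N-myc low mouse 2, is the one with the raised bioB and bioC controls, and their part in the difference was not tested. H2-Ob was read by 1 probe set with its name alone.

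Ctss, the cathepsin that cuts Cd74 in professional presenting cells, was at 7.78 and 7.85 in N-myc high and at 5.97 and 7.45 in N-myc low. The high arrays agreed closely, and N-myc low mouse 1 alone was far below the rest. The difference was 1.10 (SE 0.522), with 1.81 in mouse 1 and 0.39 in mouse 2. Leaving out N-myc low mouse 1 gave 0.36, and leaving out N-myc low mouse 2 gave 1.84.

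Ciita, the transactivator that sets class II transcription, was at 5.38 and 5.06 in N-myc high and at 5.04 and 5.18 in N-myc low. The fractions overlapped and the difference was 0.11 (SE 0.207), made up of 0.34 (mouse 1) and -0.12 (mouse 2). Ciita's remaining probe sets gave 0.07 and -0.20, also overlapping. Ciita was dim, above 38.4% of genes, so a modest difference in its transcript may not have been detectable with 2 arrays per fraction.

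Marchf1, which removes class II from the surface, was at 3.61 and 3.76 in N-myc high and at 4.87 and 4.79 in N-myc low. The fractions were apart in both mice, by -1.26 and -1.02, and the mean was -1.14 (SE 0.181), so the N-myc low intensity was 2.21-fold that of N-myc high. The Marchf1 probe set was dim, above only 27.0% of genes. Its other probe sets were dimmer still and gave -0.32 (1431367_at) and -0.10 (1434955_at), the second with overlap. On 1431367_at both N-myc high arrays had the same value of 3.05, as 291 probe sets of the whole array did. The mean over the probe sets of Marchf1 was -0.52.

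**Figure D2:**
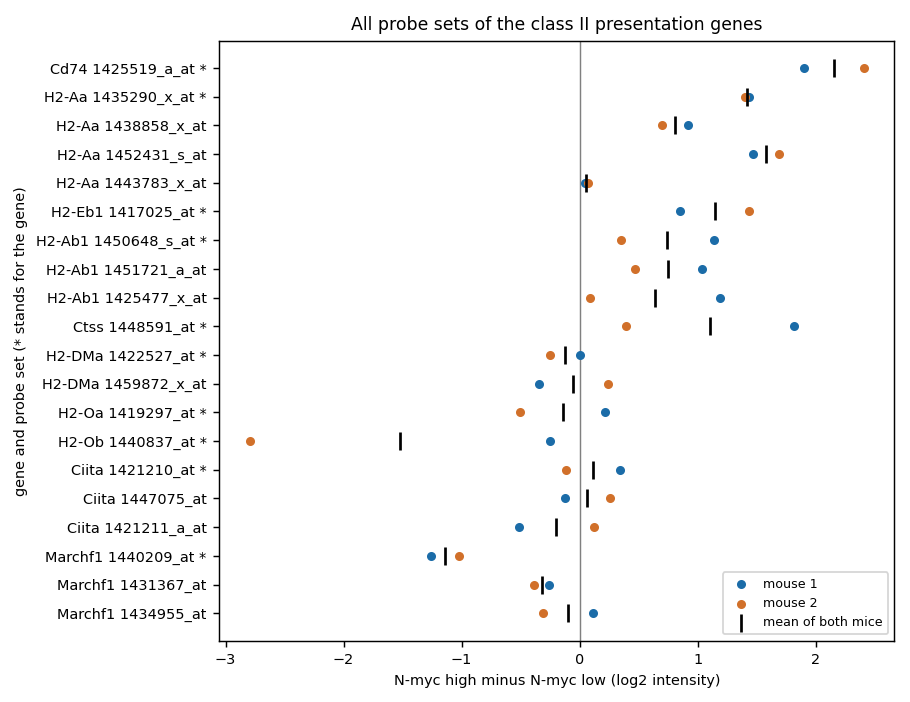
Difference between N-myc high and N-myc low (horizontal axis, log2 intensity) for all 20 probe sets of the 10 genes, with a point for each mouse and a tick for their mean. The 8 probe sets of H2-Aa, H2-Ab1 and H2-Eb1 all lie to the right of 0, the 3 of Ciita scatter around 0 with the mice on opposite sides, and those of Marchf1 have means left of 0.

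A contrast that played no part in choosing the genes is that between the mice. With the fraction as a second term in the limma fit, 0 of the 10 genes passed an adjusted p under 0.05 for mouse 2 against mouse 1, as 0% of all genes did, and 0 had an unadjusted p under 0.05, against 4.91% of all genes. Ctss had the largest difference, 0.77 higher in mouse 2 (SE 0.434, limma adjusted p = 0.880). H2-Ab1 followed with -0.56, so lower in mouse 2 (SE 0.284, limma adjusted p = 0.880). Cd74 differed between the mice by -0.13 (SE 0.230) and H2-Aa by -0.08 (SE 0.184). With 4 arrays split 2 against 2 and the fraction ignored, the lowest two-sided p that exact permutation of a single gene can give is 0.333. Permuting within each fraction cannot give a lower one. The limma p-values above therefore rest on the spread that limma pools over genes.

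The mice did differ strongly on some probe sets of the H2 complex, which were picked out after their values were seen. Of 9 probe sets of the class I chain gene H2-D1, 3 were far lower in mouse 2 in both fractions. The widest gap was on 1452544_x_at, at 10.69 and 10.47 in mouse 1 (N-myc high, then low) and at 6.09 and 5.71 in mouse 2, a difference of -4.68 (SE 0.201, limma adjusted p = 0.895 over every probe set). The probe sets 1427651_x_at and 1425614_x_at of H2-D1 gave -3.85 and -3.70, while the other 6 ran from -0.04 to 0.40. A gap of at least 3 between the mice was seen for 10 of 34945 probe sets, and 3 of these 10 were the ones of H2-D1. H2-Ea, the alpha chain gene that partners H2-Eb1, is left out of the lists here because they hold it only as H2-Ea-ps. It was at 6.75 and 4.24 in mouse 1 and at 2.85 and 2.93 in mouse 2 on 1422892_s_at (difference -2.60, SE 0.750). The H2-Ea probe sets 1422891_at and 1426202_at gave -0.92 and 0.03, so the wide gap was seen on 1 probe set only. The 12 probe sets of the 6 H2 genes among the 10 differed between the mice by -0.94 to 0.34. The labels give no strain, and what lies behind the H2-D1 and H2-Ea gaps was not tested.

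Of the 10 genes, 6 lie on mouse chromosome 17 in the H2 complex with the class I processing genes among them, per the RefSeq order of genes. In the run from H2-Oa to H2-Eb2, 13 genes were measured. H2-Ab1, H2-Aa and H2-Eb1 are neighbours at one end of it and were all higher, while their neighbour on one side, H2-Ob, was at -1.52 and that on the other side, H2-Eb2, at -0.03 (SE 0.309). Of the 7 genes in the run that are not among the 10, Psmb9, a subunit of the immunoproteasome, separated the fractions upward with 0.18, and Tap2, of the peptide transporter for class I, downward with -0.36. H2-DMb2, a beta chain of H2-DM, gave -0.78 in mouse 1 and 2.38 in mouse 2 on its brightest probe set. Its probe set 1419744_at separated the fractions upward by 1.36, with 1.09 in mouse 1 and 1.63 in mouse 2. The third, 1443686_at, gave 0.43 with overlap. Cd74, with the largest difference, is not on that chromosome, and neither are Ctss, Ciita and Marchf1.

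**Figure D3:**
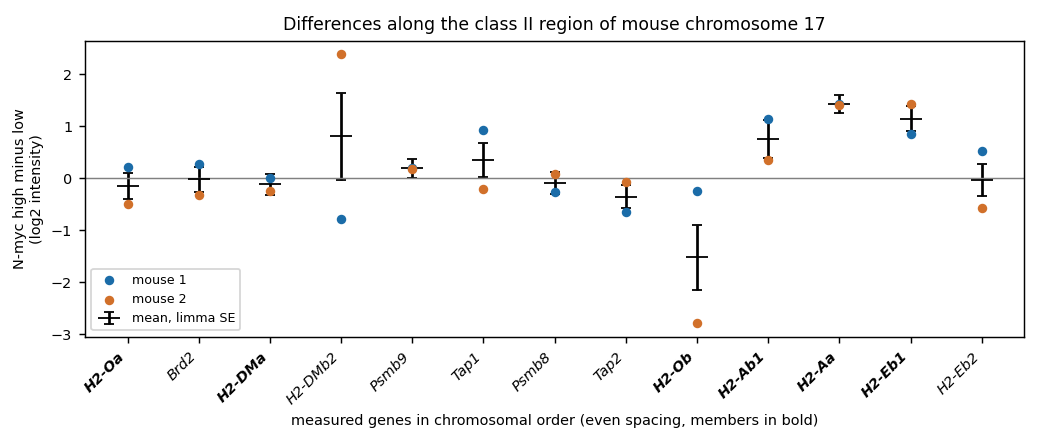
N-myc high minus N-myc low difference in log2 intensity (vertical axis) for the 13 measured genes from H2-Oa to H2-Eb2 in chromosomal order at even spacing, with points for each mouse and the mean with its limma SE in black. H2-Ab1, H2-Aa and H2-Eb1 stand together above 0 between H2-Ob at -1.52 and H2-Eb2 at -0.03.

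Other genes of the class II pathway were taken from a list of 33, of which 30 were measured. The list was drawn up with earlier results of these data known, so nothing is read from its shares below. None of the 30 passed (0 at a limma adjusted p under 0.05, 1 higher and 1 lower at an unadjusted p under 0.05). The median difference was 0.05 (0.11 with N-myc high mouse 2 left out and 0.01 with N-myc low mouse 1 left out). Of the 30, 9 (30%) separated the fractions upward and 6 (20%) downward, against 15.6% and 20.8% of all genes. Among 9 processing enzymes, 5 separated upward and 1 downward, with a median of 0.25. Ctsh, an endosomal protease, was at 7.17 and 6.62 in N-myc high and at 5.38 and 6.40 in N-myc low, a difference of 1.01 (SE 0.424, limma adjusted p = 0.791), and its other probe set gave 2.48. As with Ctss, the lowest array was N-myc low mouse 1. Ctsl, another protease that cuts Cd74, was higher by 0.83 (SE 0.247, limma adjusted p = 0.769), but its other, dimmer probe set gave -0.62.

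The costimulators differed among themselves. Cd86, a ligand of CD28 on presenting cells, was at 6.11 and 5.26 in N-myc high and at 5.19 and 4.44 in N-myc low, higher by 0.87 (SE 0.415, limma adjusted p = 0.793). Cd80, its companion, was lower, at -0.64 (SE 0.215, limma adjusted p = 0.779), with the same sign in all 4 probe sets. The 7 measured promoter factors, RFX and NF-Y subunits and Creb1, had a median of 0.03, with 1 separated upward and 1 downward. The 7 measured genes upstream of Ciita in the interferon-gamma pathway had a median of -0.05, with 1 upward and 2 downward. Over all genes, 15.6% separated upward and 20.8% downward, so nothing is read from such small counts. Marchf8, the close relative of Marchf1, differed by 0.06 (SE 0.174).

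Class I presentation genes, which show cytosolic peptides to CD8+ T cells, were measured for 17 of 19 listed, and 0 passed at a limma adjusted p under 0.05 (1 higher and 0 lower at an unadjusted p under 0.05). Of the 17, 7 (41.2%) separated the fractions upward and 1 (5.88%) downward, against 15.6% and 20.8% of all genes. The class I list was drawn up with earlier results of these data known, so nothing is read from these shares. Their median difference was 0.18. H2-M3, a class Ib chain that presents formylated peptides, was at 9.37 and 9.22 in N-myc high and at 8.42 and 7.84 in N-myc low. Its difference of 1.17 (SE 0.264, limma adjusted p = 0.762) was near that of H2-Eb1. Nlrc5, which does for class I what Ciita does for class II, was at 9.18 and 9.15 in N-myc high and at 8.80 and 8.75 in N-myc low, a difference of 0.39 (SE 0.173, limma adjusted p = 0.793). Erap1, a trimming peptidase, gave 0.45 (SE 0.228) and the classical chain H2-D1 0.34 (SE 0.173), each with a limma adjusted p = 0.806. B2m, the partner of all class I chains, differed by 0.00 (SE 0.173).

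**Figure D4:**
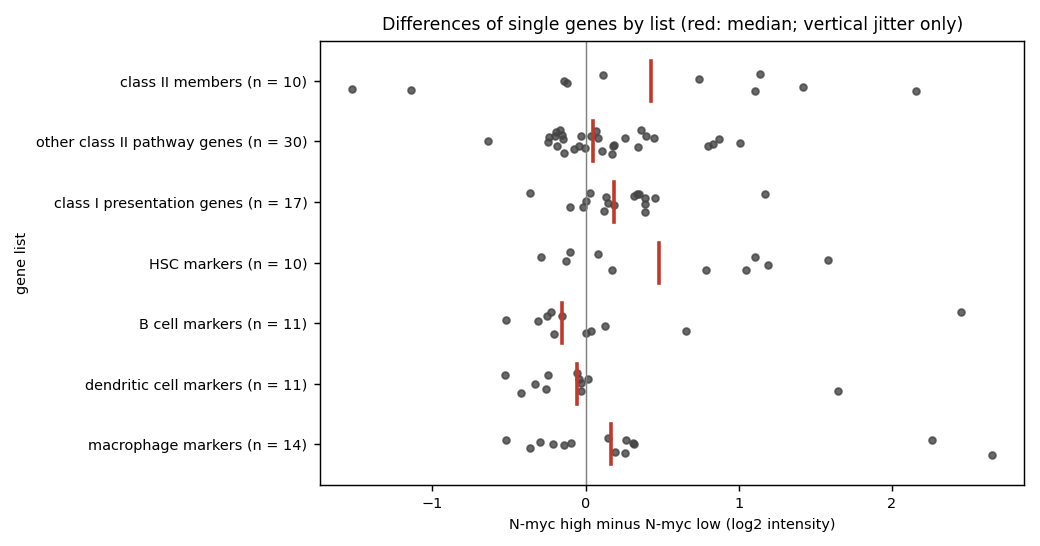
N-myc high minus N-myc low difference in log2 intensity (horizontal axis), with a point for each measured gene in 7 lists and a red line at the list's median. The 10 class II presentation genes spread from -1.52 to 2.15 around a median of 0.43, while the 30 other pathway genes have their median at 0.05 and the 17 class I genes at 0.18.

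Markers of cells that carry much class II were measured on the same arrays. RMA values have no 0, so a marker without transcript appears as a dim value. Of 11 measured B cell markers, 9 lay in the dimmer 50% of genes, and their summed linear intensity (mouse 1, then mouse 2) was 1042 and 593 on the N-myc high arrays against 407 and 1336 on the N-myc low arrays. The pre-B receptor gene Vpreb1 separated the fractions by 2.45 (8.29 and 6.51 against 4.14 and 5.77), while Ms4a1, Cd22 and Blk lay in the dimmest 25% of genes. Of the B cell receptor's signalling chains, Cd79a lay above 26.0% of genes, at 4.62 and 4.38 against 3.92 and 3.78, and Cd79b above 63.5% with a difference of -0.21. The sums overlapped through Ighm, the heavy chain gene of IgM, which was at 8.86 and 6.67 against 5.63 and 9.84 and made up 12.1% to 68.4% of them. The other 10 B cell markers summed to 578 and 491 against 358 and 423, higher on both N-myc high arrays. That sum still holds Vpreb1, and a sum without Vpreb1 was not made, so it does not show a rise shared by the 10. By single genes, 2 of the 11 (18.2%) separated upward, Cd79a and Vpreb1, and 2 (18.2%) downward, Blk and Vpreb3. Of all genes, 15.6% and 20.8% did so. The median difference of the 11 was -0.15.

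Of 11 measured dendritic cell markers, 10 lay in the dimmer 50% of genes and 5 in the dimmest 25%, and their sum was 1350 and 1121 in N-myc high against 1252 and 1217 in N-myc low. The transcription factor gene Tcf4 made up 81.0% to 85.2% of this sum, and the other 10 markers summed to 205 and 213 against 185 and 196, higher on both N-myc high arrays. Itgax, which encodes CD11c, differed by 0.01 at levels of 3.95 to 4.48. Zbtb46, a transcription factor gene of classical dendritic cells, was higher by 1.64, with the opposite sign in its other 3 probe sets. It was the 1 marker of the 11 (9.09%) that separated upward, and 3 (27.3%), Ccr9, Ccr7 and Irf4, separated downward. Of all genes, 15.6% and 20.8% did so. The sum without Tcf4 holds Zbtb46 on its rising probe set, at 5.77 and 5.80 against 3.92 and 4.36. A sum without both was not made, so that sum does not show a rise shared by the 10 markers. The median difference of the 11 was -0.06. Of 14 macrophage markers, 11 lay in the dimmer 50%, and their sum was 2126 and 2273 in N-myc high against 2136 and 2177 in N-myc low. The lysozyme gene Lyz2, with a difference of -0.30, made up 57.2% to 77.2% of it. The other 13 markers summed to 910 and 892 against 625 and 495, higher on both N-myc high arrays. C1qb, a chain of complement C1q, was at 8.24 and 8.48 against 5.76 and 5.64, a difference of 2.66 that its other 2 probe sets shared in sign, and the mannose receptor gene Mrc1 was higher by 2.26. The other C1q chains, C1qa with 0.32 and C1qc with 0.26, overlapped. Of the 14 markers, 3 (21.4%), C1qb, Mrc1 and Csf1r, separated upward and 3 (21.4%), Siglec1, Lyz2 and Marco, downward. Csf1r differed by 0.27, and its 3 probe sets shared the sign with a mean of 0.79. The shares of all genes were 15.6% and 20.8%. The sum without Lyz2 holds C1qb with its difference of 2.66. A sum without both was not made, so that sum does not show a rise shared by the 13 markers. The median difference of the 14 was 0.17. Adgre1, a surface receptor gene of mature macrophages, lay in the dimmest 25% and differed by -0.14. The part of such cells in the Cd74, H2-Aa and H2-Eb1 differences was not tested.

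Several HSC markers lay on the same side as the class II chains. Procr was at 9.18 and 9.27 in N-myc high and at 7.99 and 8.08 in N-myc low, Fgd5 was higher by 1.58 and Mecom by 1.05, although the other 2 Mecom probe sets overlapped with 0.04 and 0.08. Gata2, the brightest of the 10 measured HSC markers, went the other way, separated by -0.29 with the same sign in its 2 probe sets. Kit and Ctnnal1 differed by -0.13 and -0.10, with overlap. Of the 10, 5 (50%) separated the fractions upward and 1 (10%) downward, against 15.6% and 20.8% of all genes. The marker lists, too, were drawn up with earlier results of these data known, so nothing is read from these shares. The sum of the 10 was 6657 and 7853 in N-myc high against 5945 and 6091 in N-myc low.

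By Euclidean distance over the 4 arrays, with each gene centred on its own mean, the genes nearest to the average profile of H2-Aa, H2-Ab1, H2-Eb1 and Cd74 were Stxbp6 (0.02), Arhgef26 (0.07), Ccdc149 (0.14), Ifnz (0.18) and Rhoj (0.19). Their differences between the fractions ran from 1.31 to 1.43, while the other probe set of Stxbp6 gave 0.17. H2-Aa itself lay at 0.19, with 4 genes outside the 10 nearer, and H2-Eb1 at 0.34, with 20 nearer. Cd74 at 0.83 and H2-Ab1 at 0.82 had 539 and 500 nearer genes, since the difference of the first is larger and that of the second smaller than the average. Ctss and Ciita both lay at 1.29, and Marchf1 at 2.52 and H2-Ob at 3.19 were among the farthest.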

How the data were processed

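The authors deposited log2 intensities per probe set made with RMA, which corrects background, normalises arrays by quantiles and sums up probes. RMA, affy and limma are named in the submitters' processing notes, with no versions. Normalising by quantiles removes any shift common to a whole array. For chip definition, genome build and filters, nothing was given in the sources used here. Of 45101 probe sets, 34945 carried 1 gene name, 932 several, 9160 none here, and 64 were controls. For 34741 the Entrez number was found in RefSeq (GRCm38.p6). The probe set with the highest mean stood for each of 18193 genes.

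The groups were compared with limma 3.58.1 in R 4.3.3 (lmFit, eBayes) without the mouse, which was the replicate block in an alternative, and tested on simulated data. Arrays with the same mouse number in the labels were read as a pair from 1 animal. Deviations of same-numbered arrays correlated at r = 0.0492 across genes. Precision is limited by the number of arrays.

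The 10 genes and all lists were chosen with earlier results of these data known. Named were the 10 genes with all their probe sets, the 4 genes of smallest p in the class I and in the other class II list, marker genes that separated the fractions by at least 1, Mycn, and the 5 genes of nearest profile. Other names, the promoter motifs and their spacing were chosen after values or sequences were seen.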

Additional observations from a re-analysis of the deposited data

How the results depend on the processing

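With the mouse as a replicate block, with an intensity trend, with the mean of probe sets, with every probe set, with arrays centred on their median, without dim genes and without any 1 array, 0 genes passed the adjusted threshold between the fractions, and 0 of the class I or other class II genes did. The block left the median of the 10 genes at 0.43 and changed no call. That median was 0.088 over every probe set, 0.92 without dim genes (which leaves out Ciita and Marchf1, so 8 of the 10 remained) and 0.11 to 0.67 with 1 array left out. The other class II genes had a median of 0.023 over every probe set, 0.060 with the mean of probe sets, -0.0022 with median centring, and 0.0084 to 0.11 with 1 array left out. The class I genes had 0.180, 0.127 and 0.133 under the same settings, and 0.153 to 0.227. Between the mice, 1 gene, Xist, passed without dim genes and 0 otherwise. Cd74, H2-Aa, H2-Ab1, H2-Eb1, Ctss, H2-Ob and Marchf1 kept their sign in all settings in which they were measured, although H2-Aa was at 0.96 and Marchf1 at -0.52 with the mean of probe sets, and at 1.11 and -0.32 over the median of their probe sets. H2-DMa, H2-Oa and Ciita did not keep theirs. Dim probe sets, such as those of Marchf1 and Ciita, have no measured background beside them, which limits what their values show.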
